A study of Homo sapiens with 6 samples.

Results

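The immediate-early genes described here are 10 genes of the AP-1 and EGR transcription factor families and their close companions: EGR1, FOS, FOSL1, FOSL2, JUN, JUNB, JUND, IER2, IER3 and ATF3. They were taken by symbol from a table of 58735 genes, and all 10 matched 1 row each and passed the filter on low values, a mean of at least 1 FPKM over the 6 libraries (fragments per kilobase of gene, scaled for library depth). The libraries came from SW480 cells, a line established from a human colorectal cancer, with 3 libraries after transfection with an siRNA against ITGB4 and 3 after transfection with a negative control siRNA. Every library is labelled wild type in genotype, all 6 come from the same line, and the series calls the 3 libraries of a group biological replicates. The labels give no siRNA sequence, no time after transfection and no serum condition, and they describe 1 siRNA treatment against ITGB4, so effects of the target and of the siRNA itself cannot be told apart. Since immediate-early genes respond within minutes to hours and fade again, the missing time is a limit on what these values can show.

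AP-1 is a dimer of basic leucine zipper proteins. A JUN protein (JUN, JUNB or JUND) pairs with another JUN protein or with a FOS protein (FOS, FOSB, FOSL1 or FOSL2), and the dimer binds DNA sites such as TGACTCA. EGR1 is a zinc finger factor from the same early response, in which growth factor, adhesion and stress signals pass through ERK and JNK kinases to SRF, ELK and JUN proteins that already sit at these promoters. FOS, JUNB, EGR1 and IER2 are classic transient genes, while FOSL1 and JUND are often the lasting AP-1 subunits of carcinoma cells. IER3 is a stress-induced modulator of cell survival, and ATF3 is a stress-induced basic leucine zipper factor that can pair with JUN proteins.

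Promoter sequences are shown first because they can carry sites through which these genes are switched on. RefSeq promoter windows (build GRCh38.p14, 250 bases before to 50 after the annotated start) were matched for 8 of the 10 genes, all but FOSL1 and IER3, with 2 windows for ATF3. Capitals mark the motif, each sequence reads 5′ to 3′ on the strand of its gene, and both strands were searched.
EGR1 CArG box, distal of the pair: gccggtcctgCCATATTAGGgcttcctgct
EGR1 CArG box, proximal of the pair: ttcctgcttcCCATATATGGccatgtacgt
FOS short CRE site: tggttgagcccgTGACGtttacactcattc
JUN variant CRE: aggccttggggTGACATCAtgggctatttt
ATF3 variant CRE: cacctatgataTGACATCAtatggccactc
JUND CRE: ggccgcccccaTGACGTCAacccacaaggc
FOSL2 AP-1 site: tgccattgtagTGACTCAtctcgggcagag

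The EGR1 stretches lie at chr5:138465364-138465393 and chr5:138465386-138465415 on the plus strand, and their CArG boxes, the core of the serum response element bound by SRF, start 105 and 83 bases before the annotated start. EGR1 was the 1 gene of the 8 with a CArG box in its window, against 1.29% of all 35116 windows. Sequence further than 250 bases before the start was not searched, so a gene without a match, FOS included, may hold the motif beyond its window. The FOS stretch is at chr14:75278752-75278781 (plus strand), JUN at chr1:58784096-58784125 (minus strand), ATF3 at chr1:212565273-212565302 (plus strand), JUND at chr19:18281804-18281833 (minus strand) and FOSL2 at chr2:28392851-28392880 (plus strand). The full cyclic AMP response element (CRE), TGACGTCA, was found in the window of JUND alone, against 1.85% of all windows. The variant TGACATCA occurred in JUN and ATF3, against 2.61% of windows. The short site TGACG, which also lies within each full CRE, occurred in 7 of the 8 genes (all but ATF3), against 24.6% of windows. The AP-1 motif was searched as TGANTCA, with any base in the middle, which is wider than the site itself. It occurred in FOSL2 alone, as TGACTCA, against 7.71% of windows for the wider form. These matches are descriptions of sequence and do not show binding.

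The libraries held 13715266 to 15496274 reads, recovered from the deposited FPKM values, with 4.70% to 5.49% of reads on mitochondrially encoded genes. Among epithelial markers, EPCAM, CDH1, CDX2, KRT8, KRT18 and KRT19 were above the filter and KRT20 and VIL1 were not. The 6 fibroblast markers summed to 0.452 to 0.667 FPKM with ITGB4 siRNA and 0.464 to 0.843 with control siRNA, with DCN, LUM, COL1A2 and COL3A1 at 0 in every library. The 4 endothelial markers summed to at most 0.242 FPKM, with KDR and CDH5 at 0 in every library, and of 6 leukocyte markers only CD74 (2.21 FPKM on average) passed the filter. On the first principal component, which took 27.8% of the variance, the libraries numbered 1 of both groups stood apart from the other 4. These 2 libraries return below, because several of the immediate-early genes are high in them.

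ITGB4, the integrin β4 subunit targeted by the siRNA, was at 41.1, 38.1 and 37.9 FPKM in the ITGB4 siRNA libraries, against 74.3, 63.8 and 69.8 FPKM in the control siRNA libraries. It fell by 43.7% (log2 fold change -0.81 of FPKM + 1, SE 0.0658, limma adjusted p = 0.0148), so the knockdown was partial and left at least 37.9 FPKM in each library. The call was lost without control siRNA replicate 3 (adjusted p = 0.0996) and without ITGB4 siRNA replicate 1, 2 or 3 (0.0709, 0.137 and 0.0968). It was also lost with no filter on low values (0.0618), with the replicate number as a block (0.0564) and in replicates 2 and 3 alone (0.0797).

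None of the 10 immediate-early genes passed the test over all 12871 genes (limma, adjusted p under 0.05), where 0.0466% of all genes passed, 0.0233% lower and 0.0233% higher with ITGB4 siRNA. At an unadjusted p under 0.05 there were 3 of 10 genes, against 5.83% of all genes tested. These were 2 lower with ITGB4 siRNA, against 2.92% of all genes, and 1 higher, against 2.91%. The count was also 3 with limma-voom on the recovered reads (5.7% of all genes tested). It was 1 of 10 without ITGB4 siRNA replicate 1 (4.69%) or 2 (4.23%) or without control siRNA replicate 3 (4.06%). It was 2 of 10 without ITGB4 siRNA replicate 3 (4.51%), without control siRNA replicate 1 (10.2%), in replicates 2 and 3 alone (8.16%) and in TPM (5.76%). Mean FPKM was lower with ITGB4 siRNA in 9 of the 10 genes and higher in IER2, and 51.5% of all genes tested had a log2 fold change below 0. The median log2 fold change of the 10 genes was -0.068, beside -0.003 over all genes tested. Without control siRNA replicate 1, 6 of the 10 had a log2 fold change below 0 and the median was -0.03, without control siRNA replicate 3 they were 7 of 10, and without ITGB4 siRNA replicate 2 the median was -0.045. In EGR1, FOSL2 and FOS every ITGB4 siRNA library lay below every control siRNA library, 3 of 10 genes, against 5.36% of all genes tested with this pattern. None of the 10 lay wholly above the controls, against 5.75% of all genes tested. The genes were chosen with earlier results of these data known, so these counts describe the genes and are not a test of the set.

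**Figure D1:**
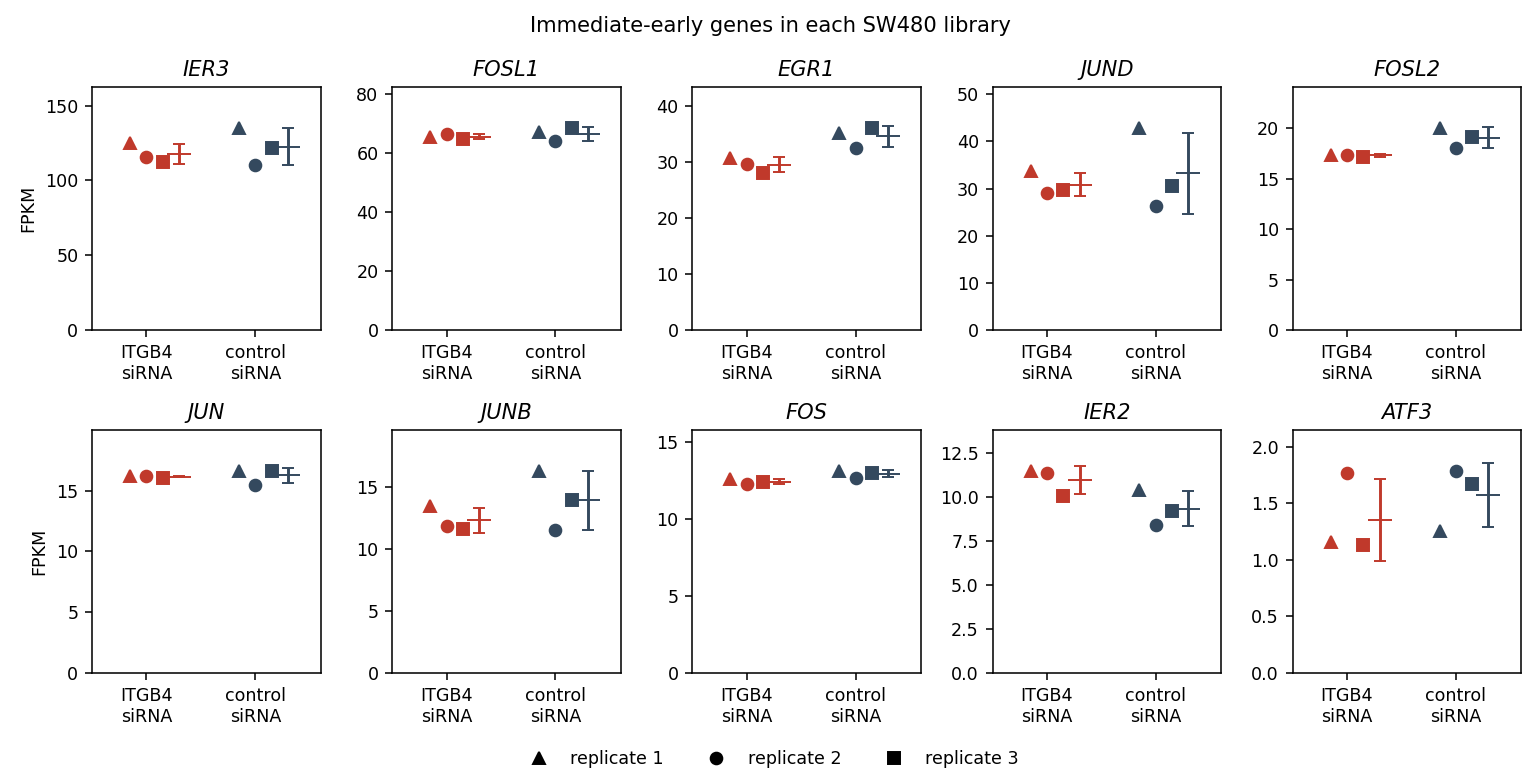
FPKM (vertical axes, each from 0) of the 10 genes in each ITGB4 siRNA library (red, left) and each control siRNA library (dark, right), with symbols for the replicate number and, beside them, the mean and SD of 3 libraries. The ITGB4 siRNA points lie below all control points in EGR1, FOSL2 and FOS, and control siRNA replicate 1 is the highest of its group in JUND (42.9 FPKM), JUNB (16.3) and IER3 (135).

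EGR1 was at 30.8, 29.8 and 28.1 FPKM in the ITGB4 siRNA libraries, against 35.3, 32.6 and 36.2 FPKM in the control siRNA libraries. The groups did not overlap, and the nearest libraries were ITGB4 siRNA replicate 1 and control siRNA replicate 2. The means were 29.5 ± 1.36 and 34.7 ± 1.87 FPKM (SD, n = 3 each), a difference of -14.8%. EGR1 (ENSG00000120738; GRCh38 chromosome 5, 138465490 to 138469315, plus strand) thus differed by -0.22 in log2 units (SE 0.0576, 95% interval -0.36 to -0.09; limma adjusted p = 0.561, unadjusted 0.00612). Permuting the 6 libraries in every way gave an exact p of 0.1 for the mean, which is the lowest value possible with groups of 3. Among the 10 genes it had the smallest p, and its log2 fold change lay between -0.27 and -0.19 when any 1 library was left out.

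FOS was at 12.6, 12.3 and 12.4 FPKM in the ITGB4 siRNA libraries, against 13.1, 12.7 and 13.0 FPKM in the control siRNA libraries. The groups did not overlap, but the step between them was small, a difference of -4.10% (log2 fold change -0.06, SE 0.0433, 95% interval -0.16 to 0.05, limma adjusted p = 0.998). FOS encodes the founding FOS protein, whose mRNA is short-lived, and at 563 to 641 reads per library its counting error alone is 4.04% of its level. The spread of FOS within groups was 1.52% of its level, smaller than that of all but 0.808% of the genes tested. It lay below the counting error, so it is not read here as a trait of FOS. On the recovered reads, limma-voom gave an SE of 0.0711.

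FOSL2, also called FRA2, was at 17.4, 17.4 and 17.2 FPKM in the ITGB4 siRNA libraries, against 20.1, 18.0 and 19.2 FPKM in the control siRNA libraries. The ITGB4 siRNA libraries were nearly level with each other and all lay below the controls. The log2 fold change was -0.13 (SE 0.0515, 95% interval -0.25 to -0.01; limma adjusted p = 0.817, unadjusted 0.0384). FOSL1, also called FRA1, was the highest of the FOS family in FPKM. It was at 65.5, 66.2 and 64.6 FPKM with ITGB4 siRNA, against 67.0, 63.9 and 68.5 FPKM with control siRNA. Its groups overlapped, and the log2 fold change lay at -0.02, with a 95% interval of -0.12 to 0.08 and a limma adjusted p of 0.998, turning to 0.0002 without control siRNA replicate 3.

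Within the JUN family the picture differed by member. JUN was the steadiest, at 16.2, 16.2 and 16.1 FPKM with ITGB4 siRNA, against 16.6, 15.5 and 16.6 FPKM with control siRNA. Its log2 fold change was -0.01, the 95% interval ran from -0.12 to 0.10 (limma adjusted p = 0.998), and the sign turned to 0.01 without control siRNA replicate 1 or control siRNA replicate 3. JUNB, which can restrain or replace JUN depending on the setting, was at 13.5, 11.8 and 11.6 FPKM with ITGB4 siRNA, against 16.3, 11.5 and 14.0 FPKM with control siRNA. The lowest and the highest JUNB library were both controls, and the log2 fold change was -0.16 (95% interval -0.44 to 0.13, limma adjusted p = 0.998). It was -0.04 without control siRNA replicate 1 and -0.28 without control siRNA replicate 2. HOOK2, a protein-coding gene on the opposite strand, overlaps JUNB and was at 8.29 to 10.6 FPKM over the 6 libraries. Without strand information in the labels, reads of the 2 genes in the shared stretch cannot be told apart.

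JUND, the JUN protein least dependent on stimulation, was at 33.7, 29.1 and 29.7 FPKM in the ITGB4 siRNA libraries, against 42.9, 26.3 and 30.5 FPKM in the control siRNA libraries. The control group alone spanned the whole range of the ITGB4 siRNA group, with replicate 1 above that range and replicate 2 below it. The log2 fold change was -0.08 (SE 0.166, 95% interval -0.47 to 0.32, limma adjusted p = 0.998). Without control siRNA replicate 1 it was 0.12 (95% interval -0.10 to 0.33), so the direction of JUND rests on that library.

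IER2, a nuclear protein of the early growth response, was the 1 gene of the 10 with a higher mean in the ITGB4 siRNA libraries, at 11.5, 11.4 and 10.1 FPKM, against 10.4, 8.43 and 9.19 FPKM in the control siRNA libraries. The groups overlapped, because ITGB4 siRNA replicate 3 lay below control siRNA replicate 1. The log2 fold change was 0.21 (SE 0.0858, 95% interval 0.01 to 0.42; limma adjusted p = 0.837, unadjusted 0.0421). IER3 was the highest of the 10 genes in FPKM. It was at 125, 116 and 112 FPKM with ITGB4 siRNA, against 135, 111 and 121 FPKM with control siRNA. Its log2 fold change was -0.05 (95% interval -0.24 to 0.13, limma adjusted p = 0.998) and 0.02 without control siRNA replicate 1. ATF3 was the lowest of the 10, at 1.16, 1.77 and 1.13 FPKM with ITGB4 siRNA, against 1.25, 1.79 and 1.67 FPKM with control siRNA. At 65 to 109 reads per library its counting error is 10.6% of its level, and its difference in log2 units, -0.13 (95% interval -0.47 to 0.21; adjusted p = 0.998 by limma), lay within the spread of the libraries.

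**Figure D2:**
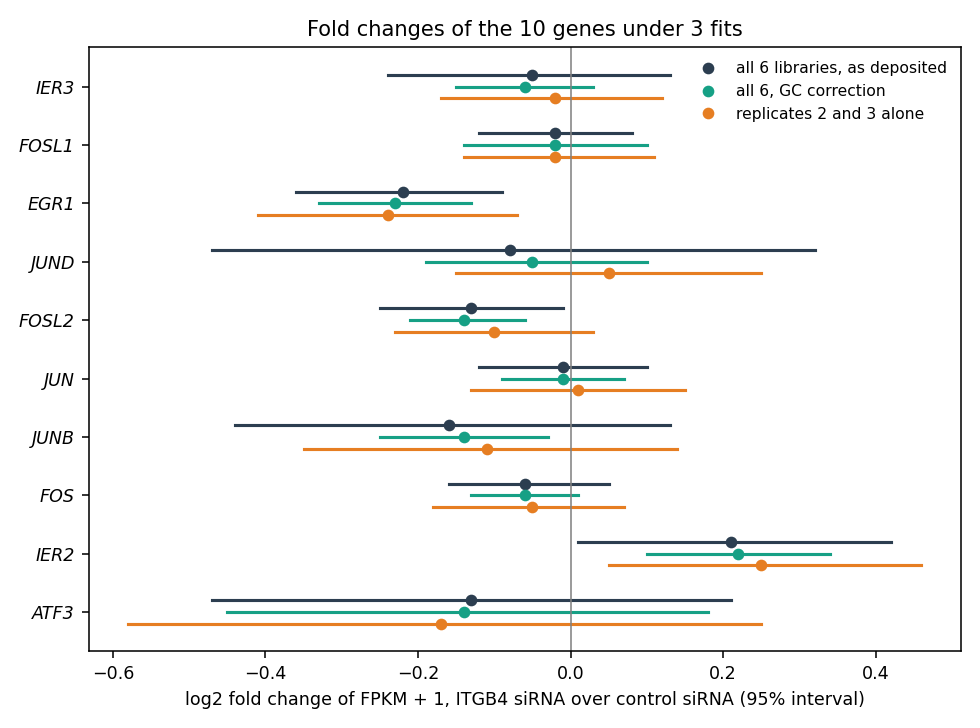
Log2 fold change of FPKM + 1, ITGB4 siRNA over control siRNA (horizontal axis), with 95% intervals for the 10 genes under 3 limma fits. EGR1 lies below 0 in all 3 (-0.22, -0.23 and -0.24) and IER2 above 0 (0.21, 0.22 and 0.25), while JUND changes side when only replicates 2 and 3 are used (0.05).

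By mean FPKM over the 6 libraries, the order was IER3 (120), FOSL1 (65.9), EGR1 (32.1), JUND (32.0) and FOSL2 (18.2). Then came JUN (16.2), JUNB (13.1), FOS (12.7), IER2 (10.2) and ATF3 (1.46). FPKM divides by a single deposited gene length, which can exceed that of the expressed transcript and so lower the value. For FOS this length, 3238 bases, covers most of the locus (75278774 to 75282230), although its longest transcript has 4 exons. GC content was not corrected for either. The order and the family shares below therefore hold for the deposited FPKM and were not tested with transcript lengths. IER3 lay above 98.1% and FOSL1 above 95.8% of the genes tested, and ATF3 above 10.2%. EGR1 and JUND had overlapping ranges over the libraries, as did JUN with JUNB and JUNB with FOS, and the other neighbours in this order did not overlap. In summed FPKM, the FOS family (FOS, FOSB, FOSL1 and FOSL2) came to 95.8, 96.4 and 94.7 in the ITGB4 siRNA libraries, against 101, 95.1 and 101 in the control siRNA libraries. FOSL1 made up 68.3%, 68.7% and 68.3% of that sum with ITGB4 siRNA, against 66.6%, 67.2% and 67.7% with control siRNA. FOSL1 was thus about the same large majority of this sum in every library, with the ITGB4 siRNA shares all slightly above the control shares. FOSB itself, the remaining FOS protein, was at 0.442, 0.530 and 0.532 FPKM with ITGB4 siRNA, against 0.463, 0.498 and 0.484 FPKM with control siRNA, below the filter. The JUN family sum was 63.3, 57.1 and 57.4 FPKM with ITGB4 siRNA, against 75.9, 53.4 and 61.0 FPKM with control siRNA. JUND made up 53.2%, 50.9% and 51.8% of it with ITGB4 siRNA, against 56.6%, 49.3% and 49.9% with control siRNA. The groups overlapped in the JUN family sum and in the JUND share.

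**Figure D3:**
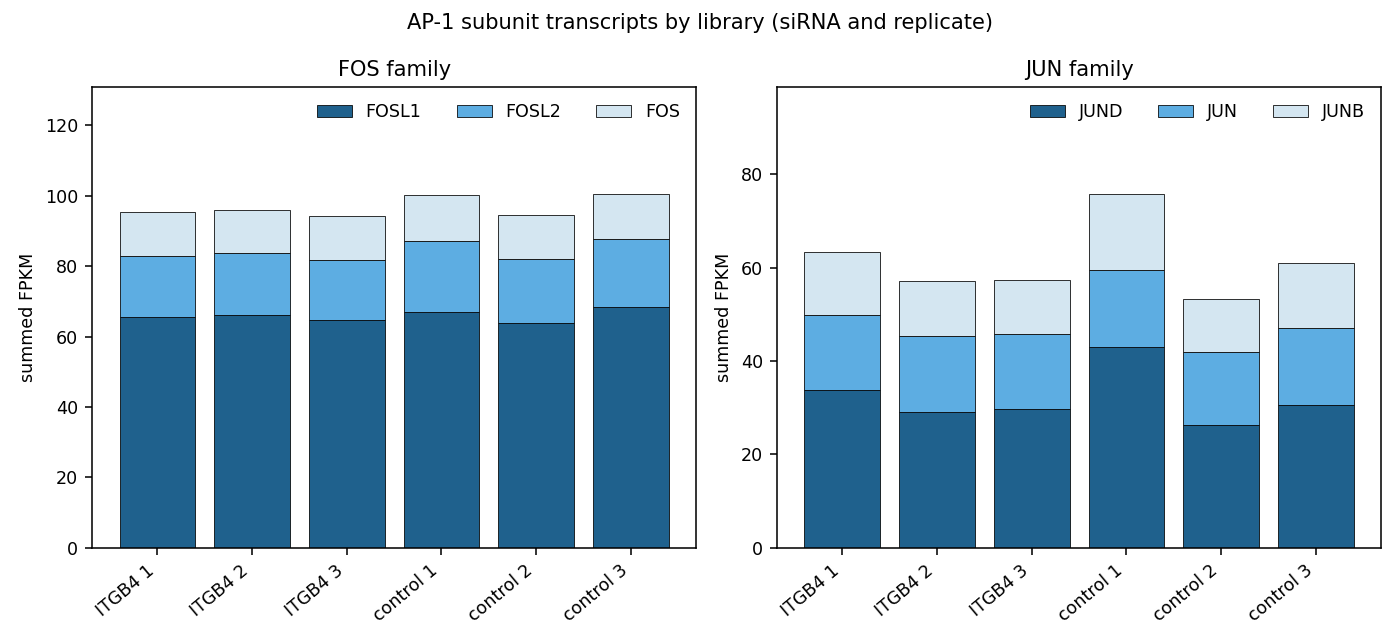
Summed FPKM (vertical axes, from 0) of the FOS family (left) and the JUN family (right) in each library, stacked by gene, with the ITGB4 siRNA libraries first; FOSB, at most 0.532 FPKM in each library, is not drawn. FOSL1 is the largest part of the FOS family in each library, and the JUN family bar of control siRNA replicate 1 is the tallest, at 75.9 FPKM.

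The genes also differed in how far they moved between replicates. The within-group spread ran from 1.52% of the level in FOS, below its counting error of 4.04%, to 19.8% in JUND and 22.0% in ATF3. The median of the 10 genes was 6.67%, beside 8.10% over all genes tested. These medians were not matched for level, and all but ATF3 lay above at least 64.1% of the genes tested in mean FPKM. Of the 10 genes, 6 had their highest library in control siRNA replicate 1, and 6 had their lowest in control siRNA replicate 2, and in 5 of the 10 (IER3, FOSL1, JUND, JUN and JUNB) both extremes were control libraries. JUND in control siRNA replicate 1 was 1.51 times the mean of control siRNA replicates 2 and 3, JUNB 1.28 times, IER2 1.18 times and IER3 1.17 times. In the ITGB4 siRNA group, replicate 1 was also the high one, by 1.15 times in JUND and in JUNB, 1.10 times in IER3 and 1.07 times in IER2. ATF3 went the other way, with replicate 1 at 0.803 times the other ITGB4 siRNA libraries and 0.725 times the other control siRNA libraries.

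Such differences ran with GC content over the tested genes. Across 10587 tested protein-coding genes, the log2 difference of replicate 1 from replicates 2 and 3 correlated with transcript GC content at r = 0.509 in the ITGB4 siRNA group and r = 0.741 in the control siRNA group (Pearson, a description across genes of the same 6 libraries). With the genes in 10 bins of equal size by GC content, the median difference in the richest bin (61.9% to 75.8%) was 0.119 with ITGB4 siRNA and 0.267 with control siRNA, and in the poorest bin it was -0.093 and -0.171. JUND, with 69.7% GC the richest of the 10 genes, differed by 0.19 with ITGB4 siRNA and 0.58 with control siRNA. JUNB (64.9% GC) differed by 0.19 and 0.34. ATF3, the poorest at 46.7%, differed by -0.17 and -0.28, further down than the medians of its bin, -0.023 and -0.032. FOSL1 and JUN departed from this order in both groups, and EGR1 and FOS in the control siRNA group. FOSL1 (60.0% GC) differed by 0.00 and 0.02, where the medians of its bin were 0.077 and 0.171. JUN (56.7% GC) differed by 0.00 and 0.05, where the medians of its bin were 0.051 and 0.124. EGR1 (55.4% GC), in the same bin as JUN, differed by 0.09 and 0.04. FOS (52.6% GC) differed by 0.03 and 0.03, where the medians of its bin were 0.026 and 0.068. Whether GC content sets the level of any single gene here was not tested.

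**Figure D4:**
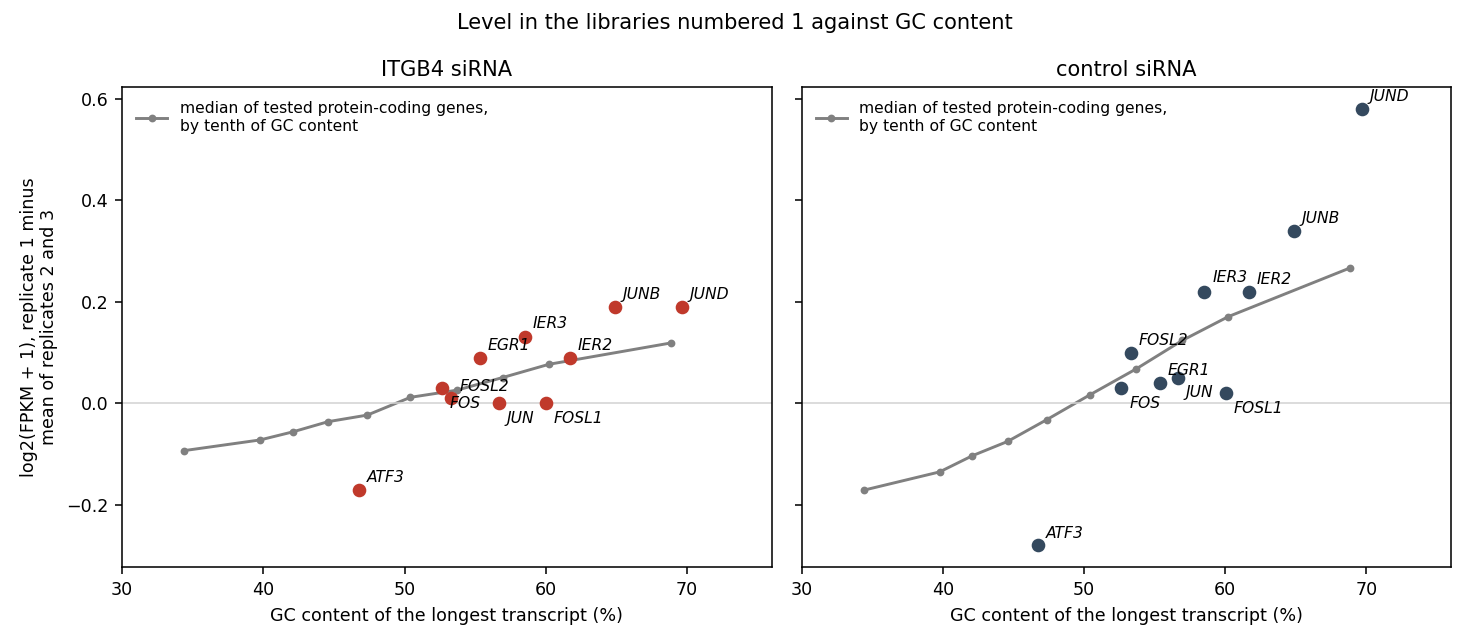
Replicate 1 minus the mean of replicates 2 and 3, in log2(FPKM + 1), against the GC content of the longest transcript (%), for ITGB4 siRNA (left) and control siRNA (right). The grey line joins the medians of tested protein-coding genes in 10 bins of GC content and climbs in both groups, to 0.119 and 0.267. JUND and JUNB lie above it, and FOSL1, JUN and ATF3 below it.

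With the GC trend of each library removed, a setting added once the data had been seen, the standard error was 0.0595 in JUND and 0.0473 in JUNB, against 0.166 and 0.121 as deposited. It moved less in ATF3 (0.133, against 0.143) and rose in FOSL1 (0.0497, against 0.0418). JUND was then at -0.05 (95% interval -0.19 to 0.10) and JUNB at -0.14 (-0.25 to -0.03, limma adjusted p = 0.353). EGR1 stayed at -0.23 (-0.33 to -0.13, adjusted p = 0.124), FOSL2 at -0.14 (adjusted p = 0.195) and IER2 at 0.22 (adjusted p = 0.194). None of the 10 genes passed in this fit either, while 50 genes passed over the whole table. At an unadjusted p under 0.05 there were 4 of the 10, against 10.9% of all genes tested in the same fit. In replicates 2 and 3 alone, a setting likewise added afterwards, EGR1 was at -0.24 (95% interval -0.41 to -0.07), FOSL2 at -0.10 and IER2 at 0.25, each with an adjusted p of at least 0.518.

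What the 10 genes share by structure sets them beside other genes in a plain way. In GENCODE release 29 (GRCh38), 5 of the 10 (JUN, JUNB, JUND, IER2 and IER3) have a single exon in their longest basic transcript, against 2.19% of tested protein-coding genes by the same count. Other transcripts of these genes may be spliced and were not counted. The median GC content was 57.6%, against 48.8%. The 3 GC-richest genes all lie on chromosome 19: JUNB (ENSG00000171223) at 12791496 to 12793315 and IER2 (ENSG00000160888) at 13150415 to 13154908, both on the plus strand, and JUND (ENSG00000130522) at 18279760 to 18281622 on the minus strand. JUN (ENSG00000177606; 58780788 to 58784327, minus strand) and ATF3 (ENSG00000162772; 212565334 to 212620777, plus strand) lie on chromosome 1. FOSL2 (ENSG00000075426) is on chromosome 2 at 28392448 to 28417312, plus strand, and FOS (ENSG00000170345) on chromosome 14 at 75278774 to 75282230, plus strand. FOSL1 (ENSG00000175592) is on chromosome 11 at 65892049 to 65900573, minus strand, and IER3 (ENSG00000137331) on chromosome 6 at 30743199 to 30744554, minus strand. AU-rich repeats of ATTTA in a 3′ UTR are known marks of short-lived mRNAs, and 9 of the 10 genes (all but IER2) hold at least 1 in their longest annotated 3′ UTR, against 72.6% of tested protein-coding genes with a 3′ UTR. The longer word TATTTAT occurred in 7 of the 10, against 34.7%. FOSL2 holds 9 copies of ATTTA, in the longest 3′ UTR of the 10 (4864 bases), IER3 holds 6 and FOS 5. The densest stretch of 30 bases is shown for these 3 genes, with ATTTA in capitals, because the repeats are what a reader would look for in an unstable early mRNA.
FOS 3′ UTR: aaacgttttattgtgtttttaATTTATTTA
IER3 3′ UTR: ttgctcctaattaatATTTAtatgtATTTA
FOSL2 3′ UTR: agaagaaattgacATTTAttttattATTTA

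The stretches lie at chr14:75282047-75282076 (plus strand), chr6:30743655-30743684 (minus strand) and chr2:28416342-28416371 (plus strand). EGR1, JUNB and IER2 lack the longer word, and whether the word bears on the fold changes was not tested.

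The rest of the early response was described by 29 tested genes of a list of 35 matched. Limma called 0 of them, and 5 lower and 1 higher had an unadjusted p under 0.05 (2.92% and 2.91% of all genes tested). By direction, 20 of the 29 were below 0 and 9 were above, and the median was -0.052. This list and those below were also chosen with earlier results of these data known, so their counts are not a test. MCL1, which protects from apoptosis, averaged 47.8 ± 0.340 FPKM with ITGB4 siRNA and 56.7 ± 1.06 with control siRNA (SD, n = 3 each), a log2 difference of -0.24 (limma adjusted p = 0.150). GADD45B and GADD45A, stress-induced growth arrest genes, were at 11.6 and 20.6 FPKM with ITGB4 siRNA, against 14.3 and 25.3 with control siRNA (both -0.28; limma adjusted p = 0.514 and 0.659). GADD45B was among the 50 genes that passed limma with the GC trend removed (adjusted p = 0.0397), and it did not pass when the replicate block was added to that fit (adjusted p = 0.173). AMOTL2, a junction-linked regulator of YAP, was at 20.1 FPKM against 23.3 (-0.20). The groups of these 4 genes did not overlap, a pattern that 8 of the 29 showed on the lower side, against 5.36% of all genes tested. MYC (87.9 and 85.4 FPKM), KLF6 (12.8 and 12.6), DUSP1, a MAP kinase phosphatase (4.54 and 4.44), and ZFP36, which binds AU-rich mRNAs (4.08 and 4.31), had overlapping groups and log2 fold changes of -0.05 to 0.04.

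Of 14 tested basic leucine zipper partners of AP-1, 8 lay below 0 and 6 above (median -0.034), and limma called 0. At an unadjusted p under 0.05 there were 2 higher and 0 lower (2.91% and 2.92% of all genes tested). ATF1, a CREB family factor, was at 20.4 ± 0.422 FPKM with ITGB4 siRNA and 17.9 ± 0.722 with control siRNA (SD, n = 3 each), a log2 difference of 0.18 (limma adjusted p = 0.600). NFE2L1, a factor of the proteasome response, was at 35.7 and 31.5 FPKM (0.17). Both genes had groups that did not overlap, 2 of the 14 on the higher side, against 5.75% of all genes tested. BACH1 (7.51 and 8.45 FPKM), MAFF (3.49 and 3.96) and ATF2, a JUN partner (8.55 and 9.18), had overlapping groups. Of the EGR side, NAB1, a corepressor of EGR proteins, was at 17.7 FPKM with ITGB4 siRNA and 19.9 with control siRNA without overlap (-0.16, limma adjusted p = 0.816), and NAB2 (25.3 and 27.2) and EGR3 (3.41 and 3.29) overlapped. EGR2 was under the filter, at 8 to 22 reads per library.

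Upstream of the early genes, 20 tested factors of the SRF, ELK, MEF2 and JNK routes split evenly, 10 below 0 and 10 above (median 0.007). Limma called 0, and 1 lower and 0 higher had an unadjusted p under 0.05 (2.92% and 2.91% of all genes tested). SRF was at 14.4 FPKM with ITGB4 siRNA and 14.2 with control siRNA (0.02), and MAPK8, which encodes JNK1, at 3.19 and 3.45 (-0.08). MEF2A was at 4.63 and 5.49 FPKM without overlap (-0.20, limma adjusted p = 0.754), MEF2D at 4.33 and 4.90 (-0.15), MAP2K4, a JNK kinase, at 5.67 and 5.16 without overlap (0.12) and MAPK14, p38α, at 13.6 and 12.9 (0.08). Groups did not overlap in 1 of the 20 on the lower side and 1 on the higher side, against 5.36% and 5.75% of all genes tested. Among 13 tested regulators of AP-1 protein turnover and activity, 10 lay below 0 and 3 above (median -0.032). Limma called 0, and 0 had an unadjusted p under 0.05, against 5.83% of all genes tested. COP1, a ubiquitin ligase for JUN, was at 7.03 and 7.39 FPKM and EP300, a coactivator, at 15.6 and 16.8, with log2 fold changes of -0.06 and -0.10. Their groups did not overlap, 2 of the 13 on the lower side, against 5.36% of all genes tested. UBE2D3 (20.8 and 22.4 FPKM) and TRIP4 (5.23 and 5.64) had overlapping groups.

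Downstream, 19 of 29 AP-1 target genes were tested, of which 11 were below 0 and 8 above (median -0.048). Limma called 0 of them, and 6 lower and 0 higher had an unadjusted p under 0.05 (2.92% and 2.91% of all genes tested). In 7 of the 19 the ITGB4 siRNA libraries all lay below the controls, against 5.36% of all genes tested. The list was chosen with earlier results of these data known, so these counts do not test AP-1 targets as a set. MT2A, a metallothionein, was at 313 ± 46.5 FPKM with ITGB4 siRNA and 425 ± 41.8 with control siRNA (SD, n = 3 each), the largest difference of the list (-0.45, adjusted p = 0.600 by limma). EZR, ezrin, which is named in the series title, was at 95.03 and 107 FPKM (-0.18, limma adjusted p = 0.451), and it passed with the GC trend removed (adjusted p = 0.0470) but not with the replicate block added to that fit (adjusted p = 0.203). CCND1, cyclin D1, was at 495 and 544 FPKM (-0.14). The receptor for urokinase, PLAUR, was at 4.94 and 5.89 (-0.21). The ligand of that receptor, PLAU, was below the filter, at 0.893 to 0.976 FPKM with ITGB4 siRNA and 0.871 to 1.08 with control siRNA.

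Stress and heat shock genes were read because immediate-early genes also answer to stress. Of 10 such genes, all tested, 5 lay below 0 and 5 above (median -0.003), limma called 0, and 2 higher had an unadjusted p under 0.05 (2.91% of all genes tested). These were DDIT3, an endoplasmic reticulum stress factor that can pair with ATF3 (15.4 FPKM with ITGB4 siRNA and 13.0 with control siRNA, 0.23), and TXNIP (6.43 and 5.15, 0.27). HSPA8 (478 and 461 FPKM) and HSPA1B (10.2 and 11.2) had overlapping groups. Their part in the values of the immediate-early genes was not tested.

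**Figure D5:**
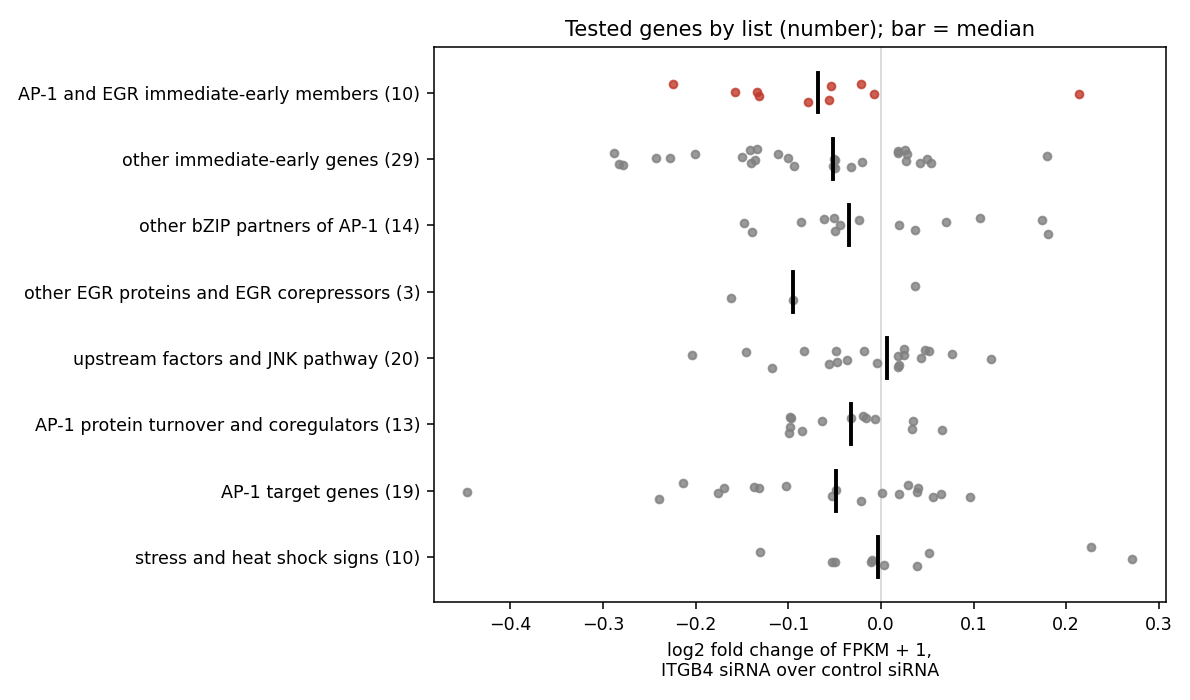
Log2 fold change of FPKM + 1, ITGB4 siRNA over control siRNA (horizontal axis), for each tested gene of 8 lists, with the number tested in parentheses and a bar at the median. The 10 immediate-early genes (red) spread from -0.22 (EGR1) to 0.21 (IER2) around a median of -0.068, and the other early genes around -0.052.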

How the data were processed

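RNA captured on poly-T beads was sequenced from 6 SW480 libraries, per the labels' protocols. The authors deposited FPKM per gene with the gene length in bases, and a mean FPKM per group that was not used here. The submitters' processing notes name GRCh38, DESeq2 and edgeR with no role; aligner, counting tool, strandedness and read length are not given in the sources used here. FPKM multiplied by gene length gave whole reads in 100% of values above 0 (tolerance 0.01), from which depth was taken; intervals from reads cover counting error only. Groups were read from the titles of the samples.

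Genes with a mean of at least 1 FPKM (12871) were fitted as log2(FPKM + 1) with limma 3.58.1 in R 4.3.3 (variance trend, 1 siRNA coefficient, all 6 libraries), two-sided, with Benjamini-Hochberg adjustment over all genes tested and calls under 0.05. Fold changes on this scale understate those of low genes. Exact two-sided permutation tests of mean FPKM were run in scipy 1.17.1. The fit was tested on simulated data with larger differences than those of the 10 genes and no GC trend. That test therefore does not cover differences as small as theirs. The 10 genes and the 7 other lists were chosen with earlier results of these data known. Named were the 10 genes, ITGB4, up to 4 genes per list with the smallest p, and 14 genes read whatever their values. GC content came from the longest GENCODE release 29 transcript, with 58676 of 58735 IDs matched, and 3′ UTRs from the same release. Alternatives covered pseudocount, filter, scaling, TPM computed from FPKM, limma-voom, a replicate block, single libraries left out and GC content.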

Additional observations from a re-analysis of the deposited data

How the results depend on the processing

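Depth limits ATF3 (65 to 109 reads). Of 159 comparisons of the 10 genes under 16 alternatives, 152 kept their direction and stayed uncalled, 0 gained a call and 7 turned sign. Leaving out 1 library gave ranges of -0.04 to 0.01 for JUN, -0.28 to -0.04 for JUNB, -0.23 to 0.12 for JUND, -0.12 to 0.02 for IER3 and -0.05 to 0.0002 for FOSL1, and in replicates 2 and 3 alone JUN was at 0.01 and JUND at 0.05. The number of the 10 genes called was 0 in every alternative run.

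Over all genes tested, 6 were called, 0 with no filter on low values, 27 with limma-voom, 0 to 7 when leaving out 1 library, 0 in replicates 2 and 3 alone, 50 with the GC correction and 3 with the GC correction and replicate block. The alternatives on GC content and on replicates 2 and 3 alone were chosen after seeing the data. Without ITGB4 siRNA replicate 1, 2 or 3 the count was 0, and without control siRNA replicate 3 it was 3; fewer libraries were in these fits. ITGB4 lost its call with no filter on low values (-0.81, adjusted p = 0.0618) and in replicates 2 and 3 alone (-0.80, 0.0797), and ran from -0.87 to -0.76 when leaving out 1 library. The replicate block alone gave 0 calls (1064 genes at an unadjusted p under 0.05) and ITGB4 at -0.81 (adjusted p = 0.0564). Same-numbered libraries of the groups had correlations of 0.173, 0.102 and -0.01 in their deviations from the mean, and differently numbered libraries -0.174 to 0.0862. With the replicate block the SE was 0.0961 in JUND and 0.0727 in JUNB, against 0.166 and 0.121 without it. The labels do not say that a number marks a shared culture or day, so the main fit did not pair the libraries. Whether same-numbered libraries share a batch was not tested. Other causes were not tested. Of 128 list medians 122 moved by less than the replicate spread, and 2 of 112 list counts moved, by 1 gene each (GADD45B and EZR). DESeq2 and edgeR on the recovered reads were not run.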
